A study of Mus musculus with 2 samples.

Results

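The cells described here were sciatic nerve macrophages that carried transcripts of an inflammatory cytokine and chemokine set. They were selected on their own counts of 4 genes: every cell with at least 3 unique molecular identifiers (UMIs, 1 per captured transcript) summed over Il1b, Cxcl2, Ccl3 and Ccl4 was taken as a member. Of 5098 cells, 508 were members, and all others served for comparison. The data came from 19 male Flt3-Cre LSL-YFP fl/fl mice aged 10 to 12 weeks, whose sciatic nerves were combined and digested before CD64+ CD45int macrophages were sorted by YFP. Each sort gave 1 droplet library, named YFP- and YFP+ here. All mice carried the same alleles, and YFP marks cells that descend from Flt3-expressing hematopoietic progenitors, so the YFP+ library holds hematopoietic stem cell (HSC)-derived macrophages and the YFP- library mainly macrophages taken to be of embryonic origin. The nerves were taken at steady state. With 1 library of pooled mice per sort there was no replicate, so no test across animals was possible, and every interval below covers counting error only.

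Il1b encodes interleukin-1β, a cytokine made as an inactive precursor and cut by the inflammasome protease caspase-1. Cxcl2 draws neutrophils through the receptor CXCR2, while Ccl3 and Ccl4 are paired chemokines that draw monocytes and lymphocytes through CCR1 and related receptors. Macrophages switch all of them on within minutes to hours through NF-κB and AP-1, the same window in which enzymatic digestion of a tissue can induce early-response and heat-shock genes.

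The YFP- library held 99 members among 1045 cells and the YFP+ library 409 among 4053. These were 9.47% of YFP- cells (95% Clopper-Pearson interval 7.77 to 11.4%) and 10.1% of YFP+ cells (9.18 to 11.1%), so the intervals overlapped. Deposited totals were 3653688 UMIs for YFP- and 9365598 for YFP+, counting all barcodes. Members were deeper than other cells, with a median of 3163 against 2138 UMIs in YFP- and 2262 against 1422 in YFP+. The share of members therefore climbed with depth. In YFP- it was 2.0% of cells with under 1000 UMIs and 31.9% of those with 4000 or more, and in YFP+ 3.72% and 40.5%. When each cell was thinned to 500 UMIs, 31 YFP- cells (2.97%, 2.02 to 4.18%) and 180 YFP+ cells (4.44%, 3.83 to 5.12%) still met the rule. After thinning the deepest cells still had the highest share, 8.33% in YFP- and 7.60% in YFP+, against 1.33% and 3.04% in the shallowest. The libraries shared 7 cell barcodes, 1 of them a YFP- member and 1 a YFP+ member, and none was a member in both.

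**Figure D1:**
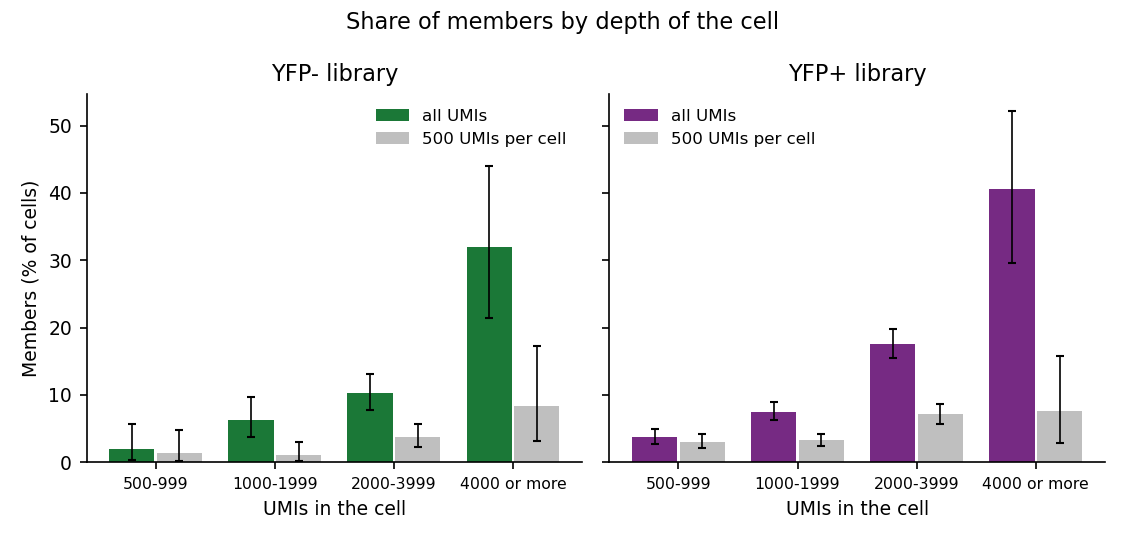
Share of members among cells (y axis, %) by the number of UMIs in the cell (x axis), for the YFP- and YFP+ libraries, with all UMIs (coloured bars) and after thinning every cell to 500 UMIs (grey bars); lines are 95% Clopper-Pearson intervals. With all UMIs the share goes from 2.0% to 31.9% in YFP- and from 3.72% to 40.5% in YFP+, and at 500 UMIs it stays at or under 8.33%.

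The label of an Il1b and Cxcl2 macrophage held only in part. Of the UMIs that chose the members, Cxcl2 gave 40.2% in YFP- and 44.99% in YFP+, Ccl3 gave 37.4% and 23.7%, and Ccl4 gave 21.9% and 29.0%. Il1b gave 0.488% and 2.26%, from 8 UMIs in 5 YFP- members and 127 UMIs in 49 YFP+ members. The cells are therefore better named by their chemokines, and are called Cxcl2/Ccl3/Ccl4 cells or members below. Ccl3 was the most counted of the 4 genes in 61 of the 99 YFP- members, Cxcl2 in 20, Ccl4 in 17 and Il1b in 0. In YFP+ the order was different, with Cxcl2 leading 163 of 409 members, Ccl3 120, Ccl4 104 and Il1b 8, and the genes tied in 1 YFP- and 14 YFP+ members. Most members showed 1 or 2 of the 4 genes: 48 and 32 of the YFP- members, 155 and 166 of the YFP+ members. All 4 were seen together in 4 YFP- and 7 YFP+ members.

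Expression was concentrated in few cells. The median member held 7 UMIs of the set in both libraries, while the highest held 132 in YFP- and 181 in YFP+. Cells with 20 or more numbered 18 and 80, and they held 55.6% and 49.7% of all UMIs of the set. At the edge of the rule, the 13 YFP- members with exactly 3 UMIs averaged 1013 CPM (summed counts of a group of cells scaled to the same total in every group) over the 4 genes and the 51 other cells with 2 UMIs averaged 761. The same values in YFP+ were 1452 CPM in 84 members and 1031 CPM in 157 other cells. These levels follow from the counts that define each group.

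The levels of the 4 genes are given as a description, since they chose the cells. Cxcl2 (chr5:90903871-90905938, + strand, GRCm38) stood at 2147 CPM in YFP- members and 27.0 CPM in the other YFP- cells, and at 2637 and 31.6 CPM in YFP+. Ccl3 (chr11:83647844-83649355, - strand) stood at 1994 and 68.2 CPM in YFP- and at 1390 and 83.8 CPM in YFP+. Ccl4 (chr11:83662584-83664683, + strand), which starts 13228 bases beyond Ccl3 and reads the other way, stood at 1168 and 19.9 CPM in YFP- and at 1703 and 28.3 CPM in YFP+. Cxcl2 and Ccl4 were thus higher in YFP+ members and Ccl3 higher in YFP- members. Il1b (chr2:129364570-129371139, - strand) stood at 26.0 CPM (95% Poisson interval 11.2 to 51.3) in YFP- members and 132 CPM (110.3 to 157) in YFP+ members, with 1 UMI in all other YFP- cells and 10 in all other YFP+ cells.

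**Figure D2:**
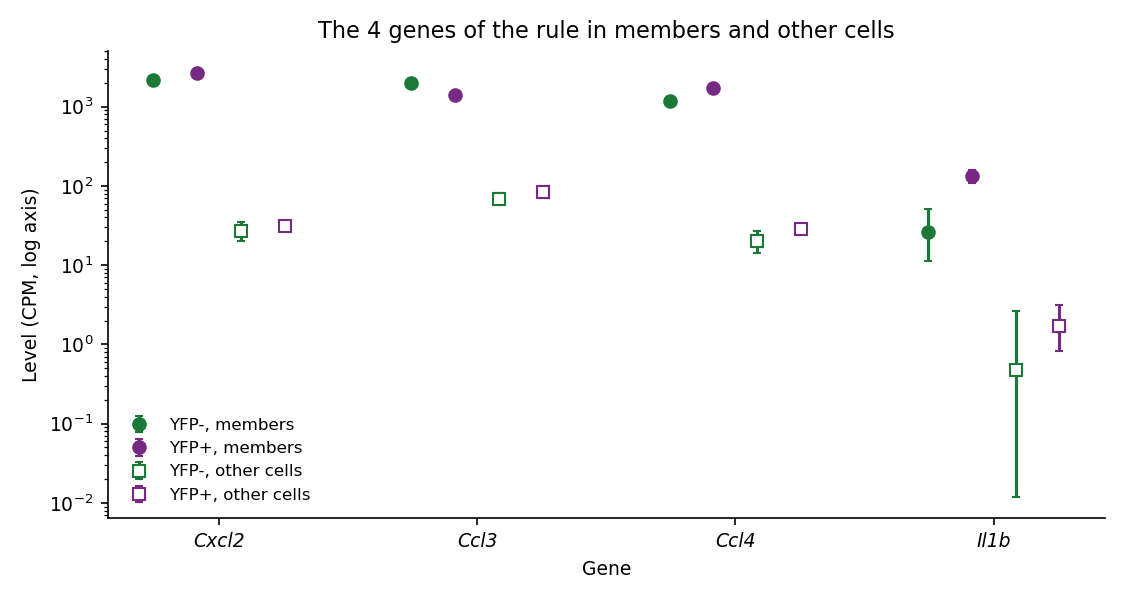
Level of each gene of the rule (x axis) in CPM on a log axis (y axis), for members (filled circles) and other cells (open squares) of the YFP- (green) and YFP+ (purple) libraries, with 95% Poisson intervals. Cxcl2, Ccl3 and Ccl4 lie between 1168 and 2637 CPM in members, Il1b at 26.0 and 132 CPM, and these values chose the cells.

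Transcripts of the set were also present outside cells. Barcodes with 10 to 100 UMIs, taken to hold mostly free RNA, averaged 1126 CPM over the 4 genes in YFP- and 1361 CPM in YFP+. Those levels lay under the members (5335 and 5862 CPM) and above the other cells (115.6 and 145.5 CPM). They also lay above the average over all cells, 779.1 CPM in YFP- and 958.6 CPM in YFP+. No cell type that should lack these genes was present in quantity, so no background share of cells could be measured. Of the other cells, which by the rule hold at most 2 UMIs of the set, 11.7% carried a Ccl3 UMI in YFP- and 10.9% in YFP+.

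Whether the 4 genes go together in single cells was asked by choosing cells on 3 of them and reading the one left out, which took no part in the choice. Each had a higher summed level in the cells chosen by the other 3, in both libraries. Il1b stood at 26.0 CPM in cells chosen by the chemokines and 0.474 CPM in the rest of YFP-, and at 113 and 5.17 CPM in YFP+ (log2 ratio 4.20, 2.40 to 4.90, and 4.21, 3.68 to 4.74). The YFP- ratio rested on 8 UMIs and 1 UMI. At 500 UMIs per cell, Il1b was seen in 0% (0 to 3.66%) of chosen YFP- cells and 0.106% of the rest. In YFP+ these shares were 4.23% and 0.219%. Cxcl2 stood at 1258 and 175.9 CPM in YFP- and at 1714 and 260.6 CPM in YFP+ (log2 ratio 2.83 and 2.71). It was the gene least tied to the others by this measure. Ccl3 had log2 ratios of 3.31 and 3.01, and Ccl4 of 4.65 (4.32 to 4.99) and 4.42 (4.26 to 4.57). At 500 UMIs per cell, 44.8% (26.5 to 64.3%) of the 29 Ccl4-positive YFP- cells also had a Ccl3 UMI, against 8.37% of Ccl4-negative cells. In YFP+ these shares were 43.2% (36.1 to 50.6%) of 192 cells and 7.20%. Among Ccl4-positive cells Cxcl2 was seen less often, in 27.6% and 24.5%, against 3.05% and 4.89% of Ccl4-negative cells.

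The promoters of Cxcl2 and of Nfkbia, the gene for the NF-κB inhibitor IκBα, are shown because both hold the NF-κB consensus and both genes mark these cells. The sequences are from RefSeq on GRCm38.p6, run 5′ to 3′ up to the base before the first annotated transcript start, and capitals mark the letters that match the consensus.
Cxcl2, chr5:90903649-90903870, + strand: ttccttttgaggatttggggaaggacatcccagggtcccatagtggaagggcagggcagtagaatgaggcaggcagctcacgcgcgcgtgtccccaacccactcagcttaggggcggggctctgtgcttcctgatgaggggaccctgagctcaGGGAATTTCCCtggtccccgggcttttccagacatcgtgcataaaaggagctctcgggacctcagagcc
Nfkbia, chr12:55492648-55492897, - strand: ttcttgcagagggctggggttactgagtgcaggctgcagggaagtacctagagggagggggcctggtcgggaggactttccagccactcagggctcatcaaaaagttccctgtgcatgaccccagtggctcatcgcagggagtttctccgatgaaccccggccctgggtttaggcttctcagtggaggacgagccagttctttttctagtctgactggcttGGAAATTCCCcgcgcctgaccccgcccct
The Cxcl2 match comprised a pair of overlapping matches, from 97 to 88 and from 96 to 87 bases before the RefSeq start, and the Nfkbia match lay 29 to 20 bases before it. The RefSeq start of Cxcl2 lies downstream of its first annotated transcript start. Its positions are therefore larger than those counted from the end of the sequence shown. In the 250 bases before the start, on either strand, the NF-κB consensus was found at Cxcl2 and not at Il1b or Ccl3, and Ccl4 was not searched here.

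Genes outside the rule were compared between members and other cells of the same library. A gene was counted where it differed at least 2-fold in the same direction in both libraries, among 2589 genes with a mean of at least 50 CPM. Counted as higher were 34 genes (1.31% of those tested), and 2 (0.0772%) were counted as lower. Of the lower genes, the linker histone Hist1h1c stood at 32.5 against 84.8 CPM in YFP- and 26.1 against 74.1 CPM in YFP+. Among the 34 were NF-κB feedback genes, early-response transcription factors, heat-shock chaperones and other chemokines, beside genes of other kinds such as Rgs1, Cyr61 and Ppp1r15a. Of the 76 genes past 2-fold in either library, 70 had the same sign in both. The genes counted above are among the 70 by definition. The median gene moved by -0.02 in YFP- and -0.06 in YFP+ on the log2 scale.

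**Figure D3:**
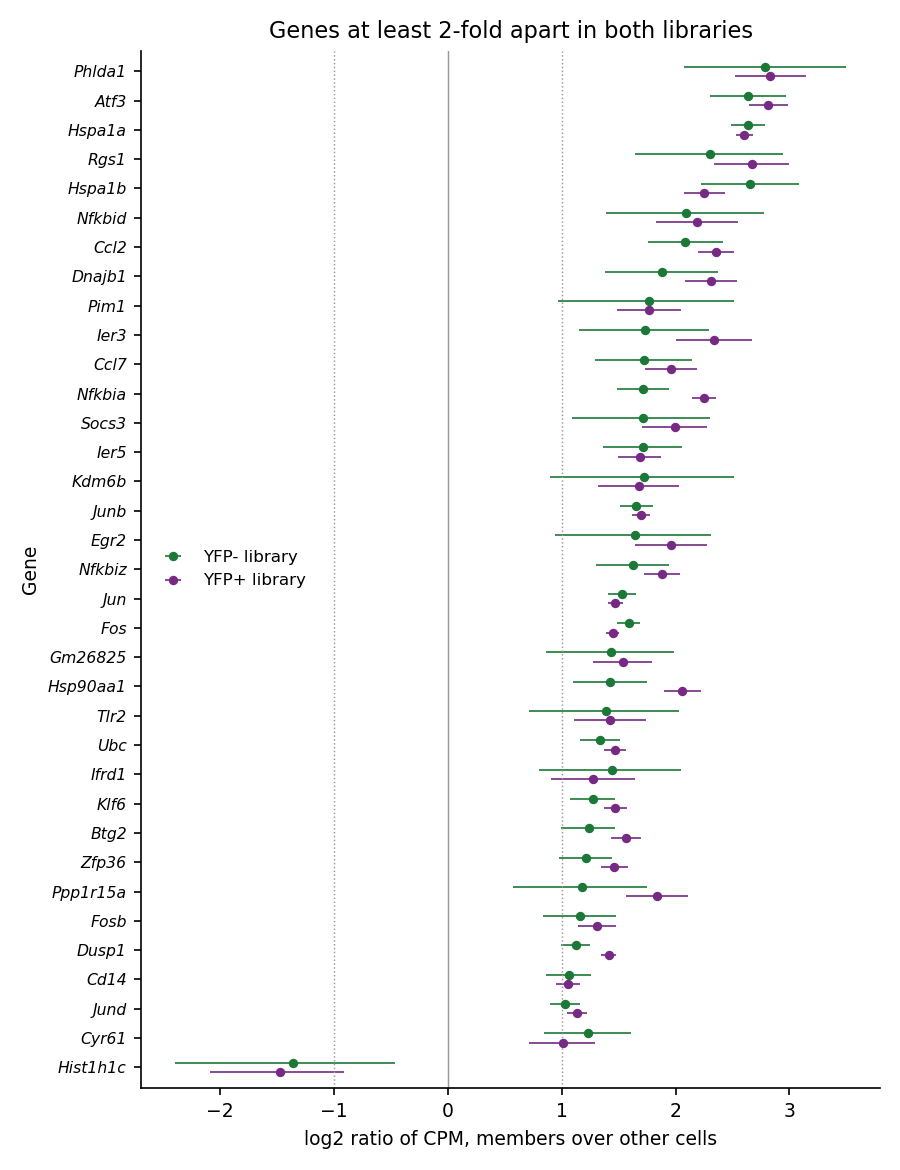
Log2 ratio of CPM, members over other cells (x axis), for the 34 genes counted as higher and 1 of the 2 counted as lower (y axis) in the YFP- (green) and YFP+ (purple) libraries, with 95% exact binomial intervals; dotted lines mark 2-fold. The 34 higher genes run from Phlda1 at 2.79 and 2.83 to Cyr61 at 1.23 and 1.01, and Hist1h1c lies at -1.36 and -1.47.

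NF-κB feedback inhibitors were among the groups with higher members. Nfkbia, the inhibitor that returns NF-κB to the cytoplasm, stood at 754.7 CPM in YFP- members against 228.8 CPM in other cells and at 1273 against 267.1 CPM in YFP+ (log2 ratio 1.72, 1.49 to 1.95, and 2.25, 2.14 to 2.36). Nfkbid, an atypical nuclear IκB, stood at 94.3 against 21.3 CPM and at 118.8 against 25.2 CPM (2.09 and 2.19). Nfkbiz, the nuclear IκB that helps switch on secondary response genes, stood at 383.8 against 123.7 CPM and at 558.5 against 150.8 CPM (1.63 and 1.88). Of the 13 genes of this list with a mean of at least 10 CPM, 6 were counted as higher: these with Tnfaip3, the ubiquitin-editing enzyme A20, its partner Tnip3, and Socs3, an inhibitor of cytokine receptor signalling. None was lower, and the median of the list was 1.18 in YFP- and 0.75 in YFP+, against -0.04 and -0.08 over all 7920 genes at that minimum, of which 0.859% were counted as higher and 0.442% as lower. The 5 NF-κB subunits gave no counted gene, and Nfkb1 stood at 52.1 against 43.6 CPM in YFP- and 39.6 against 51.0 CPM in YFP+. Rel, the subunit c-Rel, came closest to being counted, at 74.8 against 39.3 CPM (log2 ratio 0.91, 0.19 to 1.58) and 128.2 against 50.3 CPM (1.33, 1.02 to 1.64).

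Of 18 other NF-κB targets, 6 were counted as higher. They were Icam1, the adhesion molecule, Ier3 and Bcl2a1a, which restrain cell death, Gadd45b, the kinase Pim1 and Phlda1. Phlda1 ranked first among the 34 by the smaller of its 2 ratios, at 110.6 against 15.2 CPM in YFP- and 191.7 against 26.1 CPM in YFP+. Bcl2a1a belongs to a family of near-identical copies, so its share of their reads is uncertain. Ptgs2, the prostaglandin synthase COX-2, was under the minimum with 2 UMIs in YFP- members and 15 in YFP+ members, against 0 and 4 UMIs in the far larger pools of other cells. Sod2, a mitochondrial superoxide dismutase and a common NF-κB target, stood at 45.5 CPM on both sides in YFP- and at 70.9 against 48.0 CPM in YFP+. The targets of NF-κB thus did not move as a block.

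Early-response transcription factors were higher too. Atf3, a stress-induced member of the AP-1 family, stood at 468.4 against 74.4 CPM in YFP- and at 611.6 against 86.0 CPM in YFP+ (log2 ratio 2.64, 2.30 to 2.97, and 2.81, 2.64 to 2.99). Fos, the most abundant, stood at 3982 against 1325 CPM and at 3880 against 1422 CPM (1.59 and 1.45). At a mean of at least 10 CPM, 0.859% of all genes were counted as higher and 0.442% as lower. Of 9 AP-1 factors measured, 6 were counted as higher, namely Fos, Fosb, Jun, Junb, Jund and Atf3. Of 14 Egr, Nr4a, Klf and other early genes 7 were, among them Egr2, Nr4a1, Klf6 and Btg2, while Egr1 fell just short of 2-fold at 927.1 against 500.3 CPM and 1026 against 525.8 CPM. Heat-shock chaperones gave 4 of 12, Hspa1a, Hspa1b, Hsp90aa1 and Dnajb1. Hspa1a stood at 2196 against 352.5 CPM in YFP- and at 3057 against 502.6 CPM in YFP+, and since Hspa1a and Hspa1b are near-identical their reads cannot be fully told apart. Dnajb1, a co-chaperone of Hsp70, stood at 175.7 against 46.9 CPM and 305.3 against 60.6 CPM. The immediate-early gene Ier5, one of the 7 above, stood at 331.8 against 100.4 CPM and 360.5 against 111.4 CPM, and Kdm6b, a histone H3K27 demethylase, at 65.1 against 18.9 CPM and 105.2 against 32.1 CPM.

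These genes overlap the response that tissue digestion is known to induce. Of a list of 16 dissociation-response genes, 14 were counted as higher and none lower, beside 0.859% and 0.442% of all genes at that minimum. The list was chosen with earlier results of these data known. It also repeats genes of the lists above, such as Fos, Hspa1a and Nfkbia. Their summed level was 20292 CPM in YFP- members against 7340 CPM in other cells, and 22867 against 7565 CPM in YFP+. Fos was the most abundant of them in members and other cells of both libraries. The share of UMIs on mitochondrial genes, a sign of RNA quality, was slightly lower in members, at 0.981% in members and 1.11% in other cells of YFP- and 0.984% and 1.10% in YFP+. The part of digestion in the members' profile was not tested.

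Other ligands were few. Tnf, encoding the cytokine that shares many NF-κB targets with interleukin-1β, stood at 97.6 CPM in YFP- members against 12.3 CPM in other cells. In YFP+ it stood at 66.7 against 17.1 CPM. It was the only counted gene of 7 other cytokines measured, beside 0.859% of all genes counted as higher. Il1a, encoding the second interleukin-1, had 0 UMIs in members of either library, and Il6 had 0 in YFP- and 1 in YFP+. A count of 0 allows up to 9.76 CPM in YFP- members and 3.13 CPM in YFP+ members. Il1rn, the interleukin-1 receptor antagonist, had 0 and 7 UMIs in members.

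Of 12 other chemokines measured, 3 were counted as higher, Ccl2, Ccl7 and Cxcl1, beside 0.859% of all genes. Ccl2, the main ligand of CCR2 on monocytes, stood at 409.9 against 95.7 CPM in YFP- and 617.9 against 120.1 CPM in YFP+ (log2 ratio 2.09, 1.76 to 2.41, and 2.35, 2.19 to 2.51). Its neighbour on chromosome 11, Ccl7, stood at 224.5 against 67.3 CPM and at 272.0 against 69.1 CPM. Ccl12, which lies beside them, was less different, at 663.6 against 507.4 CPM and 727.3 against 427.1 CPM. Cxcl1, which shares the receptor of Cxcl2, had 12 UMIs in YFP- members and 42 in YFP+ members (39.0 and 43.8 CPM), against 2.84 and 6.05 CPM in other cells. Cells with at least 3 UMIs over Ccl2, Ccl7 and Ccl12 made up 39.4% (29.7 to 49.7%) of YFP- members and 13.7% (11.6 to 16.1%) of other cells, and 30.8% (26.4 to 35.5%) and 10.8% (9.77 to 11.8%) in YFP+. At 500 UMIs these shares were 19.4% against 4.24% and 16.1% against 3.87%. Members in turn made up 23.1% and 24.3% of those Ccl2 group cells, so most of each population lay outside the other.

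Among receptors and sensors, Tlr2 and Cd14 were higher in members. No gene was counted among 6 measured receptors of IL-1, TNF and the chemokines, or among 9 inflammasome genes. Over all genes with a mean of at least 10 CPM, 0.859% were counted as higher and 0.442% as lower. Lists of these sizes would thus mostly give none. Nlrp3, the sensor that licenses interleukin-1β release, stood at 32.5 against 20.4 CPM in YFP- and 56.3 against 22.5 CPM in YFP+, and Casp1 at 58.6 against 59.7 and 60.4 against 43.2 CPM. Of 14 Toll-like receptors and adaptors 2 were counted as higher, Tlr2, a receptor of bacterial lipoproteins, and the lipopolysaccharide co-receptor Cd14. Cd14 stood at 884.8 against 423.6 CPM and at 1079 against 518.2 CPM. Tlr4 itself stood at 19.5 against 47.4 CPM in YFP- and 19.8 against 33.2 CPM in YFP+. Of 9 decay factors of AU-rich mRNA, which shorten the life of cytokine transcripts, Zfp36 (tristetraprolin) alone was counted, at 670.1 against 288.5 CPM and 875.3 against 316.9 CPM.

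The members carried the macrophage genes of the cells around them. The summed level of 14 identity genes was 23571 CPM in YFP- members against 24960 CPM in other cells and 23028 against 24709 CPM in YFP+. None of them was counted in either direction, beside 0.859% of all genes counted as higher and 0.442% as lower. A list of this size would thus mostly give none. Csf1r, the receptor of the macrophage growth factors, stood at 972.6 against 995.0 CPM and 825.2 against 881.0 CPM. The 8 genes of MHC class II presentation were near level as well, with H2-Aa at 6102 against 6203 CPM in YFP- and 7846 against 7855 CPM in YFP+ (log2 ratio -0.02, -0.09 to 0.05, and 0.00, -0.04 to 0.03). Of 14 perivascular resident macrophage genes 3 were counted as lower: Fcna, Cd209f and Timd4. Cd209f, a lectin of the CD209 family, had 0 UMIs in YFP- members against 33.2 CPM in other cells, and 8.34 against 24.9 CPM in YFP+. More abundant genes of that list differed less, such as the mannose receptor Mrc1 at 797.0 against 1025 CPM and 835.7 against 903.6 CPM. The list's median was -0.36 in YFP- and -0.54 in YFP+.

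Ccr2, the chemokine receptor of recent monocyte descendants, did not mark these cells. It stood at 146.4 CPM in YFP- members against 120.8 CPM in other cells (log2 ratio 0.27, -0.21 to 0.73) and at 261.5 against 296.5 CPM in YFP+ (-0.18, -0.38 to 0.01). Cells with at least 3 UMIs over the Ccr2 group genes were 11.1% of YFP- members and 9.62% of other cells, and 19.8% and 17.9% in YFP+. At 500 UMIs per cell the order was the other way, at 0% (0 to 11.2%) against 1.38% in YFP- and 1.67% (0.345 to 4.79%) against 3.54% in YFP+, with overlapping intervals. The 9 monocyte markers summed to 289.5 CPM in YFP- members against 335.4 CPM in other cells and to 641.9 against 823.8 CPM in YFP+, with Ly6c2, Plac8, Chil3 and Vcan at 0 in members of both libraries and at 0 or 1 UMI in other cells. The defining markers of neutrophils, a rich source of Il1b and Cxcl2, were absent: S100a8, S100a9, Ly6g, Retnlg, Camp, Ngp and Ltf were at 0 in members and other cells alike. The neutrophil list summed to 117.1 CPM in YFP- members and 68.8 CPM in YFP+ members, below the other cells at 196.6 and 115.8 CPM, and most of it was Mmp9. Mast cell markers gave 0 and 1 UMI in members and T and NK cell markers 1 and 4. The B cell list summed to 367.6 and 378.2 CPM in members against 374.8 and 380.1 CPM in other cells, mostly Ighm, with Cd79a, Ms4a1 and Igkc at 0 throughout. Dendritic cell markers summed to 143.1 and 160.5 CPM in members and 172.9 and 150.5 CPM in other cells, led by Batf3.

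Summed markers of Schwann, mural and fibroblast cells were lower in members. The 7 Schwann cell markers summed to 302.5 against 760.4 CPM and 381.4 against 682.5 CPM, with Pmp22 the most abundant and Sox10 at 0 in members. Yet cells with at least 2 of these UMIs were 24.2% of YFP- members and 16.0% of other cells, and 19.3% and 11.4% in YFP+ at the members' greater depth. Mural markers summed to 0 and 8.34 CPM in members against 11.4 and 135.1 CPM, fibroblast markers to 9.76 and 17.7 against 25.6 and 107.3 CPM, and endothelial markers to 58.6 and 60.4 against 97.6 and 62.9 CPM. In YFP- the intervals of members and other cells overlapped for mural and for fibroblast markers. In YFP+ only 17 other cells held at least 2 mural marker UMIs and 25 at least 2 fibroblast marker UMIs.

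Several genes climbed with the 4 rule genes when cells were ordered by the UMIs of the set among 500 drawn from each cell. The levels themselves used all UMIs, and the bins differed in depth, with medians of 1440 to 2202 UMIs in YFP+ and 2175 to 3296 in YFP-. In YFP+, Nfkbia stood at 280.5 CPM in the 3409 cells with none, 602 CPM with 1 UMI, 982.3 with 2, 1669 with 3 to 4, 1730 with 5 to 9 and 2220 with 10 or more. Atf3 went from 95.2 to 1266 CPM, Hspa1a from 510 to 6243 CPM and Ccl2 from 112.9 to 1162 CPM over the same bins. Rgs1, an inhibitor of chemokine receptor signalling, went from 22.9 to 572.3 CPM. Mrc1 went from 898.3 to 763.1 CPM and H2-Aa from 7858 to 6642 CPM. The YFP- bins past 2 UMIs held 15, 9 and 7 cells, and their order was uneven: Nfkbia stood at 224.4 CPM with none, 994.4 with 3 to 4, 722.8 with 5 to 9 and 2297 with 10 or more. In YFP+, cells with 1 UMI stood above cells with none for Nfkbia, Atf3, Hspa1a, Ccl2 and Rgs1. Of the 409 YFP+ members, 180 met the rule at 500 UMIs, so the bins under 3 UMIs also hold members. These genes were named as higher in members, so their order over the bins in part restates that comparison.

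**Figure D4:**
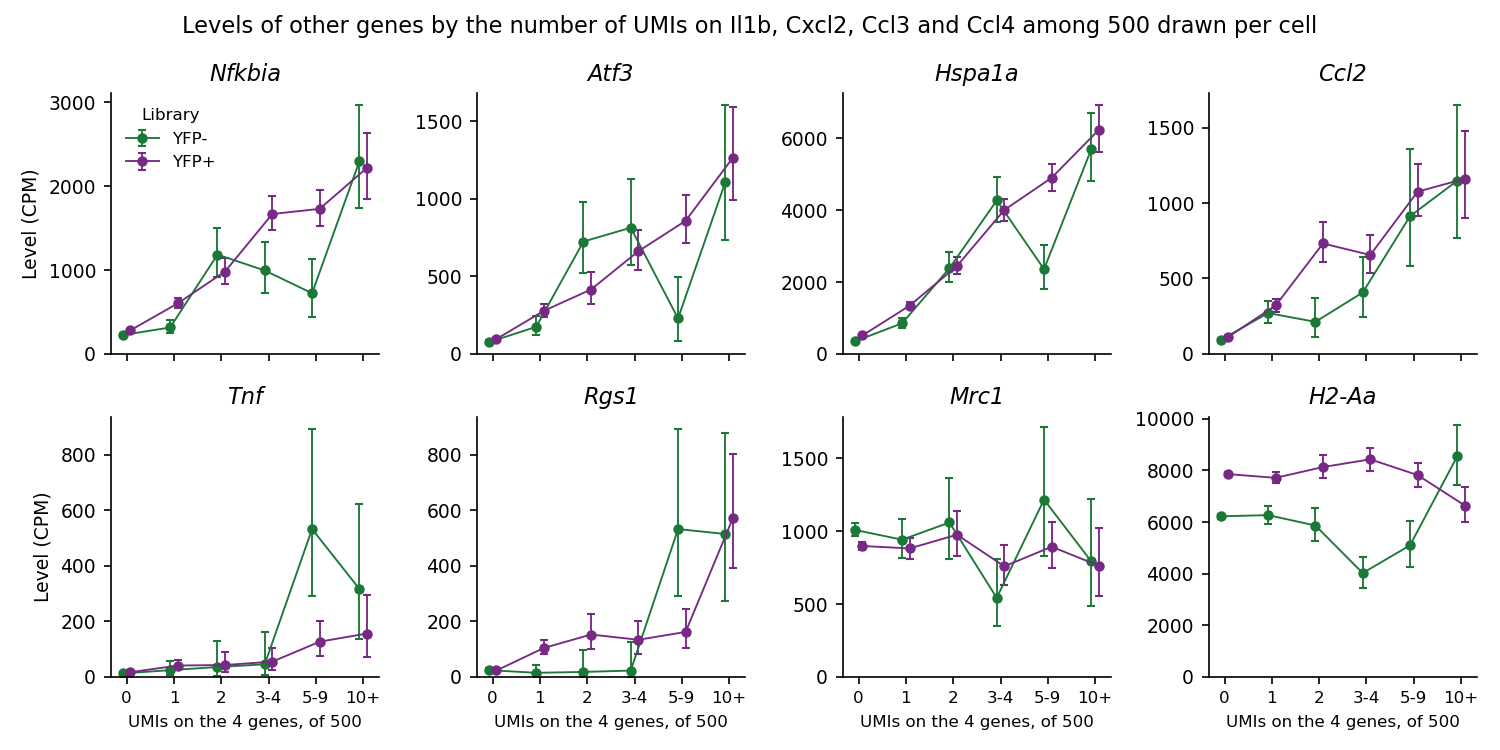
Level in CPM (y axes, each starting at 0) of 8 genes in cells grouped by UMIs on Il1b, Cxcl2, Ccl3 and Ccl4 among 500 drawn per cell (x axes), for the YFP- (green) and YFP+ (purple) libraries, with 95% Poisson intervals. Nfkbia, Atf3, Hspa1a and Ccl2 climb across the YFP+ bins, to 2220, 1266, 6243 and 1162 CPM, while Mrc1 (758.8 to 976.2 CPM) and H2-Aa (6642 to 8432 CPM) show no steady climb there; the 3 highest YFP- bins hold 15, 9 and 7 cells.

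Some cells with a strong early response fell short of the rule, and members were also set against those. Other cells whose share of UMIs on 10 early-response genes reached the members' median (1.26% in YFP-, 1.62% in YFP+) numbered 100 and 312. Of 2582 genes tested, 3 (0.116%) were counted as higher in members and 10 (0.387%) as lower, beside 34 and 2 in the comparison with all other cells, which shares the members. The 10 early-response genes that chose these cells were left out here, while 8 of them are among the 34. The counts of the comparisons therefore do not cover the same genes. The 3 higher genes were chemokines and a cyclin. Ccl12 stood at 663.6 against 171.7 CPM in YFP- and 727.3 against 304.7 CPM in YFP+, and Ccl7 at 224.5 against 58.8 CPM and 272.0 against 128.3 CPM. Ccnd2, cyclin D2 of the G1 phase, stood at 91.1 against 31.6 CPM and 112.5 against 46.1 CPM, and without the deepest 5% of cells its YFP- ratio was -0.08.

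The NF-κB feedback list was nearly level in that comparison, with medians of 0.14 and 0.16 and Tnip3 alone counted of 12 genes. The dissociation list was at -0.51 and -0.34 with none of 16 counted, and the AP-1 list at -0.52 and -0.54. Over all 7845 genes with a mean of at least 10 CPM in that comparison, 0.829% were counted as higher and 1.42% as lower, with medians of -0.01 and -0.05. Early-response-high cells were chosen on 10 genes of these kinds, so those values are a description. The 10 genes took 2.31% of UMIs in early-response-high cells and 1.58% in members of YFP-, and 2.63% and 1.78% in YFP+. The cells compared thus had the stronger early response and were not matched to the members. Lower medians of the AP-1 and dissociation lists were in part set by that choice. Among the 10 lower genes were Mbp, Pmp22 and Cnp of myelin, and Cryab, Sparc, Apod, Mt2 and Cd9. Pmp22 stood at 227.7 against 1067 CPM in YFP- and 214.6 against 847.9 CPM in YFP+, so the summed level was higher in early-response-high cells. The share of cells with at least 2 Schwann marker UMIs was not, at 19.0% in early-response-high cells and 24.2% in members of YFP- and 18.3% and 19.3% in YFP+. A fixed cut of 2 UMIs favours deeper cells, and members had a median of 3163 against 2104 UMIs in YFP- and 2262 against 1364 in YFP+. Without cells with at least 2 Schwann marker UMIs, a setting added after seeing the data, none of the 10 was counted, and 3 others were (Colec12, Yae1d1 and Polr2a). Ccl12 was then still counted as higher, at 638.7 against 313.7 CPM and 791.5 against 380.7 CPM, joined by Phlda1 and Stmn1, while Ccl7 (log2 ratio 0.88 in YFP+) and Ccnd2 (0.80 in YFP-) were no longer counted. The part of myelin RNA in this comparison was not tested beyond that setting.

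**Figure D5:**
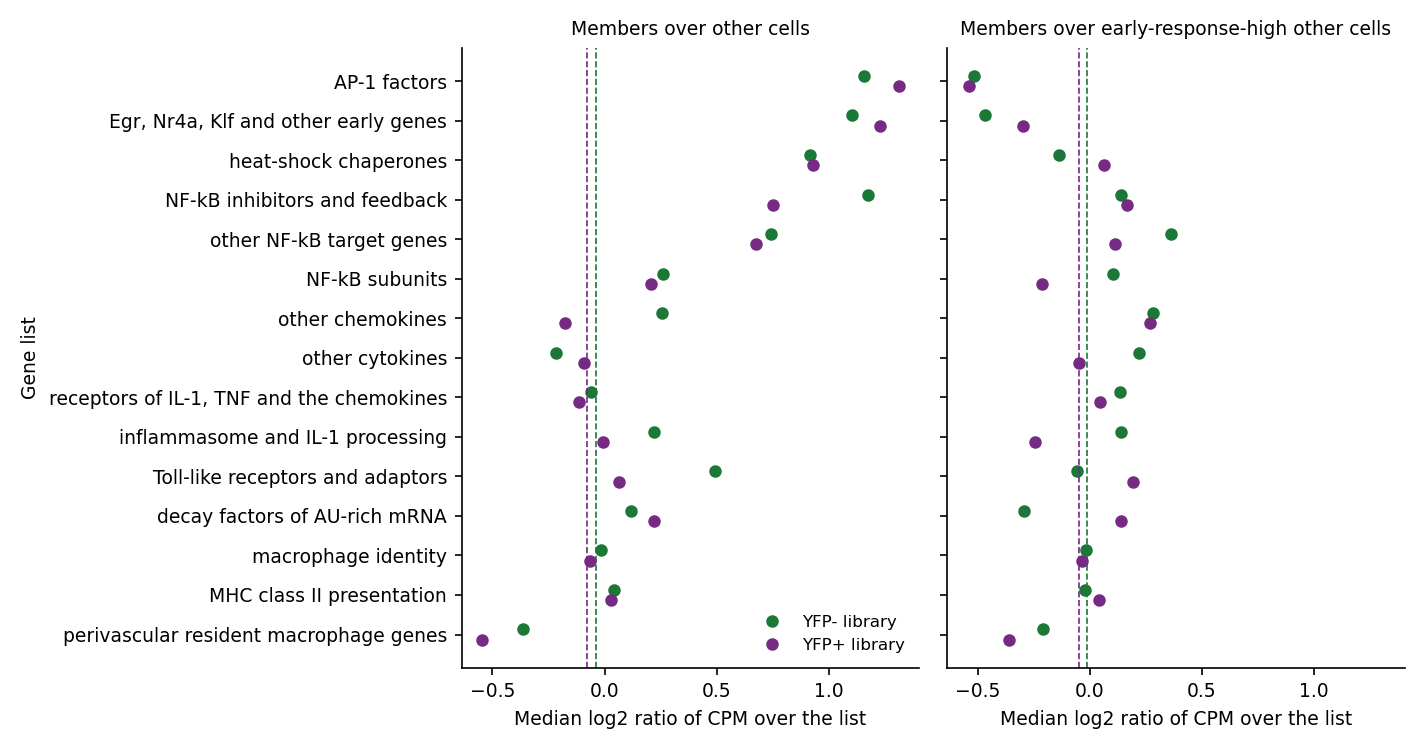
Median log2 ratio of CPM (x axes) over the measured genes of 15 lists (y axis), for members over other cells (left) and over early-response-high other cells (right) in the YFP- (green) and YFP+ (purple) libraries; dashed lines are the medians over all genes measured. The AP-1 list lies at 1.16 and 1.31 on the left and at -0.52 and -0.54 on the right, and macrophage identity and MHC class II lie near 0 in both. The cells compared on the right were chosen on early-response genes, AP-1 factors among them.

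Cells led by each chemokine differed in what went with it. In the 163 YFP+ members led by Cxcl2, Nfkbia stood at 2057 CPM and Atf3 at 925.1 CPM, against 687.7 and 428.5 CPM in the 120 led by Ccl3 and 685.2 and 328.2 CPM in the 104 led by Ccl4. The smaller YFP- groups of 20, 61 and 17 cells gave the same order for both genes between Cxcl2 and the rest, with Nfkbia at 1792, 414.0 and 704.3 CPM and Atf3 at 1221, 217.9 and 475.4 CPM. Rgs1 was instead highest with Ccl4 in YFP+, at 295.4 CPM (231.2 to 372.0) against 80.1 CPM (54.4 to 113.7) with Cxcl2, while in YFP- it was 163.4 CPM with Ccl3 and rested on 4 UMIs with Cxcl2 and 1 with Ccl4. Cells led by Ccl3 held fewer UMIs of the set, a median of 5 in YFP- and 4 in YFP+, against 24 and 10 for Cxcl2 and 12 and 13 for Ccl4. In YFP+ the Ccl4-led cells thus held more of the set than the Cxcl2-led cells and less Nfkbia.

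The 49 YFP+ members with an Il1b UMI were read against the 360 without. They held more UMIs of the set, a median of 15 against 7 (Il1b included), at similar depth (medians of 2527 and 2230 UMIs). Members without Il1b had to reach the rule on the other 3 genes, so the levels of those genes here were in part set by the choice: Cxcl2 stood at 2732 against 2622 CPM, Ccl4 at 1793 against 1688 CPM and Ccl3 at 2078 against 1282 CPM. Over all YFP+ cells at 500 UMIs, 32.0% of the 25 Il1b-positive cells had a Cxcl2 UMI against 5.66% of the rest, and 40.0% a Ccl4 UMI against 4.52%. Nlrp3 stood at 123.1 against 45.8 CPM (1.41, 0.48 to 2.27) and Atf3 at 1077 against 538.7 CPM. Lyve1, a hyaluronan receptor of perivascular macrophages, stood at 69.3 against 219.3 CPM (-1.65, -2.78 to -0.70), from 9 UMIs. Ccr2 was close between them, at 223.2 against 267.5 CPM, as was H2-Aa at 8320 against 7772 CPM. Named after their values were seen, the genes with the highest ratios were Ccrl2, a chemerin-binding receptor, at 153.9 against 30.1 CPM, Gngt2 at 92.4 against 18.1 CPM and Cxcl1 at 138.5 against 28.9 CPM, and those with the lowest were Cyr61 at 7.70 against 154.3 CPM and Rcsd1 at 15.4 against 104.8 CPM. Of 2492 genes, 72 (2.89%) were at least 2-fold higher and 64 (2.57%) at least 2-fold lower, with no second library to set beside them.

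YFP+ members were finally compared with YFP- members to ask whether origin goes with a different program in these cells. Of 2553 genes tested, 24 (0.94%) were at least 2-fold higher in YFP+ and 95 (3.72%) at least 2-fold lower. Sort, library and origin cannot be told apart in this design. Of the 95 lower genes, 61 are annotated as pseudogenes, mostly of ribosomal proteins. All 61 were also lower in the other YFP+ cells, 56 of them 2-fold. Gm6274, for example, stood at 69.8 CPM in YFP+ members against 283.0 CPM in YFP- members, and AC122453.1 at 20.8 against 87.8 CPM. The mitochondrial gene mt-Nd4l, with 43.8 against 152.9 CPM, was among the others. Reads of such copies cannot be assigned with certainty, and the difference was present in members and other cells alike.

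Retnla, encoding the secreted protein RELMα of alternatively activated macrophages, had the largest difference among the higher genes. It stood at 845.0 CPM in YFP+ members and 74.8 CPM in YFP- members (log2 ratio 3.48, 2.89 to 4.13), against 1075 and 697.4 CPM in other cells (0.62, 0.54 to 0.71). The YFP- members were thus low in Retnla compared with the cells around them, from 23 UMIs. Il1b, one of the genes that chose the cells, was higher in YFP+ members by 2.30 (1.31 to 3.48), from 127 and 8 UMIs. Gadd45g, Rap2b, Tnfsf9 (the ligand of 4-1BB) and Jaml followed at 2.46, 1.97, 1.88 and 1.39, the first of them from 5 UMIs in YFP-. S100a6 and S100a4, calcium-binding proteins, were higher by 1.39 and 1.37 in members and by 1.23 and 1.44 in other cells, and S100a4 was at -0.08 when cells were thinned to 500 UMIs. Of the 24 higher genes, 22 had the same sign in other cells and 4 were 2-fold there.

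Promoters of the 34 higher genes were searched for 3 motifs in the 250 bases before the RefSeq start on either strand. Of the 23 found in the promoter table, 6 (26.1%) held the NF-κB consensus: Nfkbid, Ier3, Nfkbia, Fos, Tlr2 and Fosb. Of all 27025 genes of the table, 4.46% did. The cyclic AMP response element TGACGTCA was found at Nfkbid, Btg2, Ppp1r15a and Dusp1 (17.4%, against 1.77% of all genes), and the AP-1 motif TGANTCA at 0 of the 23, against 7.82% of all. A match of letters is a description of the sequence, not a bound site.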

How the data were processed

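Single-cell RNA-seq (10x Genomics v2) was deposited for 2 libraries, YFP- and YFP+, as matrices of UMI counts for every barcode. The authors made these raw counts with Cell Ranger on GRCm38, before any normalization. The submitters' processing notes name Cell Ranger 3.0.2 and Seurat 2.2.0, while the study's methods name another Cell Ranger release. Barcodes with at least 500 UMIs and 200 genes were kept as cells, doublets were kept, and cells were not clustered. The study's own filter kept fewer cells, and its set was not matched cell by cell here. Members and gene lists were chosen with earlier results of these data known. Counts were summed over the cells of a group and scaled to CPM. Log2 ratios used a pseudocount of 1 CPM, which understates the change of low genes, with exact conditional binomial 95% intervals. Shares carry Clopper-Pearson and levels Poisson intervals. A 0 was read as up to 3 counts. Genes were counted at 2-fold or more, in both libraries where members were compared within a library, at a mean of at least 50 CPM (10 CPM for lists). No p-value was computed. Named were the rule genes, the 15 higher and 10 lower genes with the largest smaller ratio of the libraries, 8 each way between YFP+ and YFP-, 10 each way against early-response-high cells, and up to 5 per list. Of 54838 gene IDs, 54723 matched GENCODE vM21. Some genes are not reported here by name. The fold rule and the intervals were tested on simulated Poisson counts. That simulation had no spread between cells and no choice of members by count, so it does not cover those features. Python 3.11.15 with numpy 2.4.6, scipy 1.17.1 and pandas 2.3.3 was used. Alternatives varied depth, rule, filters, free RNA, scaling and weighting.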

Additional observations from a re-analysis of the deposited data

Results flagged for a closer look

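Apoe, a lipid carrier abundant in these macrophages, had ratios of opposite sign in the libraries, with a log2 ratio of members over other cells of 0.046 in YFP- and -0.18 in YFP+, each with an interval off 0. The difference between the libraries was not tested. Below the minimum for a cell, 4 YFP- barcodes and 21 YFP+ barcodes carried at least 3 UMIs of the 4 genes, up to 15 and 17, at median totals of 316 and 332 UMIs. Barcodes that were not cells held 41.3% of the UMIs of the 4 genes in YFP- and 33.9% in YFP+, beside 33.8% and 28.0% of all UMIs. The source of these UMIs was not tested.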

How the results depend on the processing

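Between members and other cells, the alternatives were read for the 15 top-ranked higher genes and Hist1h1c. Of their 448 ratios, 445 stayed at least 2-fold in their direction. These genes were ranked by the size of their ratios, and genes named only from lists were not followed in this way. The members' share changed with depth and threshold. It was 2.97% in YFP- and 4.44% in YFP+ when cells were thinned to 500 UMIs, and 6.41% and 6.88% with at least 5 UMIs for membership. In YFP+ it was 12.7% among cells of at least 1000 UMIs and 8.78% without the deepest 5% of cells. The genes higher in members than in other cells, 34 as reported, numbered 52 after thinning, of which 32 were shared, 68 at a minimum of 10 CPM and 166 with no minimum. Those lower, 2 as reported, numbered 11 after thinning, 5 with at least 5 UMIs, 4 without cells holding markers of other types, 35 at 10 CPM, 493 with no minimum and 4 with cells weighted equally.

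Between YFP+ and YFP- members, 24 higher genes became 110 after thinning, 44 with at least 5 UMIs, 38 without the deepest cells, 44 without cells holding other-type markers, 422 at 10 CPM, 3691 with no minimum and 41 with equal weights. The 95 lower genes became 264 after thinning, 144 without other-type marker cells, 686 at 10 CPM and 2671 with no minimum. S100a4 turned to -0.079 after thinning. Against early-response-high cells, 3 higher genes became 8 after thinning, 5 with 10% free RNA removed, 65 at 10 CPM and 679 with no minimum. The 10 lower genes became 16, 17 without other-type marker cells, 111 and 525. Ccnd2 turned to -0.078 in YFP- without the deepest cells.

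Removing cells with at least 2 Schwann marker UMIs was chosen after seeing the data. It gave 44 genes higher in YFP+ members and 3 lower than early-response-high cells. Against early-response-high cells Cryab turned to 1.32 in YFP- and 0.25 in YFP+, Cnp to 0.075 in YFP-, Mt2 to 0.050 in YFP-, and Cd9 to 1.39 in YFP- and 0.40 in YFP+. The cause of these changes was not tested.

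For a rule gene read in cells chosen by the other 3, thinning gave 5.32 and 3.44 for Il1b in YFP- and YFP+, 3.45 and 3.06 for Cxcl2, 3.68 and 3.29 for Ccl3, and 4.02 for Ccl4 in YFP+. At least 5 UMIs gave 3.05 for Cxcl2, 3.17 for Ccl3 and 4.24 for Ccl4 in YFP+. No paired analysis was possible because each condition had 1 library, whose replicate number is only a name.

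Without replicate libraries, no difference between animals or sorts can be separated from the library. The YFP- members hold 307417 UMIs, so a count of 0 there allows up to 9.76 CPM. Choosing cells by counts favours deep cells, and barcodes with too few UMIs for a cell carry the same 4 transcripts.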

Other observations

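Of 8 cell cycle genes measured, 1 was at least 2-fold higher in members in both libraries, beside 0.859% of all genes. The counted gene was Pclaf, a PCNA-binding factor of DNA replication, at 29.3 against 13.7 CPM and 46.9 against 15.9 CPM. Top2a, a topoisomerase of dividing cells, stood at 39.0 against 21.8 CPM and 65.6 against 20.04 CPM. The 9 genes of the list summed to 1083 CPM in YFP- members against 762.3 CPM in other cells and to 1307 against 887.6 CPM in YFP+, and Tubb5, a tubulin not limited to dividing cells, gave 533.5 and 584.5 CPM of the members' sums. Against early-response-high cells 4 of 8 were counted as higher, namely Top2a, Birc5, Pclaf and Cks1b, beside 0.829% of all genes at that minimum.

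None of 7 homeostatic microglia genes and none of 11 disease-associated microglia genes was counted, beside 0.859% of all genes counted as higher and 0.442% as lower at that minimum, so lists of this size would mostly give none. Cx3cr1, the fractalkine receptor, stood at 309.0 against 267.7 CPM in YFP- and 325.1 against 339.3 CPM in YFP+. Trem2, a lipid-sensing receptor, stood at 344.8 against 312.7 CPM and 344.9 against 354.2 CPM. Of 22 genes that the study names in its macrophages only Fos and Jun were counted, both as higher. Of 6 interferon-stimulated genes none was counted as higher. Of 3 MAPK phosphatases Dusp1 was higher, at 2062 against 946.6 CPM and 2615 against 982.1 CPM.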
